A study of Mus musculus with 4 samples.

Results

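The acyl-CoA dehydrogenases and the electron transfer flavoproteins that serve them were followed in mouse liver after overexpression of lipin 1beta. They are the 10 genes Acadvl, Acadl, Acadm, Acads, Acadsb, Ivd, Gcdh, Etfa, Etfb and Etfdh, among 12393 genes with a probe set of their own on the array. Every probe set whose single gene symbol in the platform annotation was one of these names was taken, which gave 12 of 20380 named probe sets, 1 each for 8 genes and 2 each for Acadl and Ivd. Of the 12, 11 passed the filter on dim probe sets, among them at least 1 for every gene. The dimmer Acadl probe set did not pass, at 274 and 78.7 in the lipin samples and 19.2 and 317 in the GFP samples.

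The lipin group comprises 2 liver samples from adult male C57BL6 mice that received an adenovirus for mouse lipin 1beta, and the GFP group 2 liver samples from such mice that received an adenovirus for green fluorescent protein. All mice were killed 6 days after the injection, so both groups carry a viral vector and no uninfected liver was compared. The labels give RNA of lipin replicate 2 as polyA RNA and that of the other 3 samples as total RNA. The labels do not state whether replicates were separate animals. Errors and p-values therefore describe these samples and the spread of probe sets of like intensity, and the difference between samples may be technical.

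Acyl-CoA dehydrogenases are flavoenzymes of the mitochondrial matrix that put the first double bond into an acyl-CoA, the opening step of each round of beta-oxidation. Each accepts a different range of substrates, from very long straight chains to the short branched chains left by amino acid breakdown. Their electrons pass to electron transfer flavoprotein, a dimer of the products of Etfa and Etfb, and from there through ETF-ubiquinone oxidoreductase, the product of Etfdh, to ubiquinone and complex III. In liver these enzymes feed fasting ATP production and ketone body synthesis, and several of their genes are known targets of PPAR alpha, the nuclear receptor with which lipin 1 acts as a coactivator.

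Proximal promoters are shown for the pair of genes that stood furthest above GFP, Etfdh and Acadvl, and for Acadm, the one gene that stood below. Each run is the 250 bases before the RefSeq start (GRCm38.p6), read 5′ to 3′ on the gene's strand, which is the minus strand for all of them. Capitals mark the nuclear receptor half-site AGGTCA and the core GCATGCGC of the motif of NRF1, a factor of nuclear genes for mitochondrial proteins, in either orientation. The intervals are chr3:79628768-79629017 for Etfdh, chr11:70015429-70015678 for Acadvl and chr3:153944644-153944893 for Acadm.
Etfdh: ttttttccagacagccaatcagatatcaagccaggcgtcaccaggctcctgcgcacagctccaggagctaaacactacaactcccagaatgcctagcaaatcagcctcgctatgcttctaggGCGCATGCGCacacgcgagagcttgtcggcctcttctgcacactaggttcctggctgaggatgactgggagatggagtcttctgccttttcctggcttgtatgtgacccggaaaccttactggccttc
Acadvl: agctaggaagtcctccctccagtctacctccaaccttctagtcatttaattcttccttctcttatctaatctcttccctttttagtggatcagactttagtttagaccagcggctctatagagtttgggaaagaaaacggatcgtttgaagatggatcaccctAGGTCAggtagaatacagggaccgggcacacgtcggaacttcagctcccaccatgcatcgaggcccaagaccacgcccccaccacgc
Acadm: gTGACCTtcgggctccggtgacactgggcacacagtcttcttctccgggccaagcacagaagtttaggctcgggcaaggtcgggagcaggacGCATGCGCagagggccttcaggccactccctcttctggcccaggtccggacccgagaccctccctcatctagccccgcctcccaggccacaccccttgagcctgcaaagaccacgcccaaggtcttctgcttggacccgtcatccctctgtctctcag

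In these windows AGGTCA occurred, on either strand, in 2 of the 10 promoters, Acadvl at 87 to 82 bases and Acadm at 249 to 244 bases before the start, and in 14% of 32851 RefSeq promoter windows of the same length. The longer forms TCAAGGTCA and AGGTCANAGGTCA, which contain the half-site, were in none of the 10 windows and in 0.387% and 0.0335% of all. GCATGCGC was in the promoters of Etfdh, Acadm and Etfa, 3 of 10, against 2.26% of all windows. Etfdh holds it in both orientations, overlapping, at 128 to 119 bases before the start. This last motif was searched after the sequences had been read, so its count cannot serve as a test of an excess. The windows of Etfdh, Acadm and Etfa were 54.4%, 64.0% and 58.8% GC, beside a median of 52.4% over all promoters. The part of base composition in the count was not tested. A match is a match of letters only.

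Signals are in arbitrary units, and all arrays had the same trimmed mean. The array of GFP replicate 2 was the least like the rest: its correlations with them over the tested probe sets averaged 0.731, and those of the other 3 arrays 0.781 to 0.793. Its 3′ to 5′ signal ratio, which is higher where RNA is degraded, was also the highest, at 4.22 for beta-actin and 2.01 for Gapdh, compared with 2.85 and 2.86 (actin) and 1.78 and 1.65 (Gapdh) in the lipin samples and 1.77 and 1.52 in GFP replicate 1. Lpin1 itself exceeded both GFP samples on both of its probe sets in lipin replicate 2 (6719 and 11087) but not in lipin replicate 1 (2260 and 3854), against 2730 and 7082 in GFP replicate 1 and 1430 and 4632 in GFP replicate 2. Directions below therefore rest on the labels, and whether these probe sets can detect the vector's transcript is not known here. Hepatocyte markers were bright in every sample, with summed signals of 2069757 and 2497917 in the lipin samples and 1506250 and 2986910 in the GFP samples over 8 genes. Singly, 7 of these 8 markers had a positive log2 difference, with a median of 0.31, and 3 were higher and 0 lower without overlap. Of all genes tested, 50.1% had a positive difference, and 17.3% were higher and 16% lower without overlap. The part of the hepatocyte markers in the differences below was not tested.

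The genes of this family differed in size and partly in direction. Etfdh was 5.74-fold and Acadvl 2.67-fold higher in the samples labelled lipin, and Etfb 1.63-fold and Acads 1.45-fold higher. Acadsb was 2.35-fold and Acadl 1.36-fold higher, and both values rested on the low signal of GFP replicate 2. Acadm was 1.37-fold lower, and Gcdh, Etfa and Ivd lay within 1.15-fold of GFP. The median log2 difference of the 10 genes was 0.49, or 1.40-fold, beside 0.0015 over all 8493 genes tested, and 9 of the 10 were above 0, beside 50.1% of all genes. Gcdh was among the 9, at 0.013. Without GFP replicate 2, Acadsb, Etfa and Gcdh turned negative (-0.23, -0.22 and -0.0092), and Acadm stayed below 0 (-0.77). None of the 10 passed limma's test at an adjusted p under 0.05, and across all 13576 probe sets tested the share that passed was 0% higher and 0% lower, with a lowest limma adjusted p of 0.660. At an unadjusted limma p under 0.05, 3 members were higher (Etfdh, Acadvl and Etfb) and 0 lower, where 2.47% of all probe sets were higher and 1.92% lower. An exact permutation test of 1 gene in 2 samples against 2 cannot go below p = 0.333, two-sided.

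In 4 of the 10 genes, Acadvl, Acads, Etfb and Etfdh, both lipin samples were above both GFP samples, and in Acadm both were below. The corresponding shares of all genes tested were 17.3% and 16%. Without GFP replicate 2 the count above was 5 of 10 (all of these plus Ivd), beside 36.2% of all genes, and the median difference was 0.22. In whole liver, fewer cells that express a gene and less RNA per cell cannot be told apart.

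**Figure D1:**
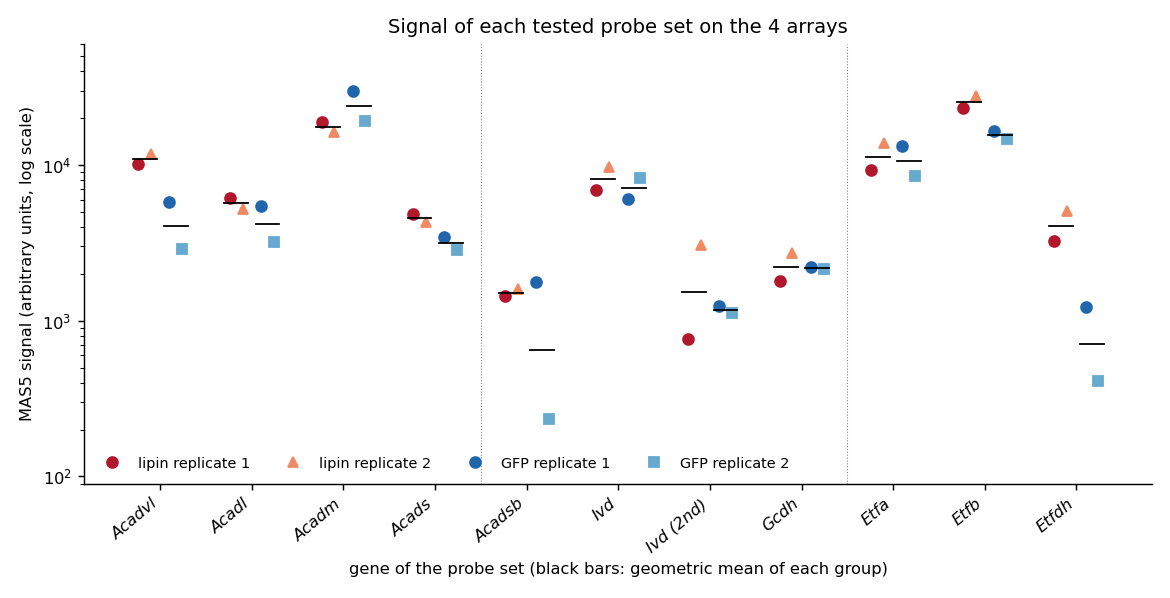
MAS5 signal (log axis, arbitrary units) of the 11 tested probe sets on each array, lipin samples left of GFP samples, with a black bar at each group's geometric mean; dotted lines divide straight-chain dehydrogenases, amino acid dehydrogenases and electron transfer genes. Both lipin points lie above both GFP points for Acadvl, Acads, Etfb and Etfdh, and the GFP replicate 2 point of Acadsb, at 234, lies far below the other 3.

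Electron transfer from the dehydrogenases to the respiratory chain was the step with the largest single difference. Etfdh, the oxidoreductase that hands the electrons to ubiquinone, had signals of 3274 and 5096 in lipin replicates 1 and 2, against 1233 and 411 in GFP replicates 1 and 2. The groups did not overlap, and the smallest difference between any lipin and any GFP sample was 1.41 on the log2 scale, between the replicates numbered 1. The mean was 4185 ± 1289 in lipin and 822 ± 581 in GFP (SD, n = 2 each), or 2.52 ± 0.59 apart on the log2 scale (SE; limma adjusted p = 0.804). The 95% interval of this difference alone, not adjusted for the number of probe sets, ran from 2.40-fold to 13.7-fold, and 36 of 8493 genes had a larger positive difference. With GFP replicate 2 left out the log2 difference was 1.73, and with GFP replicate 1 left out it was 3.31; without lipin replicates 1 and 2 in turn it was 2.84 and 2.20. Its direction thus held with each array left out, while its size depended most on which GFP sample was kept.

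Etfb, the beta subunit of electron transfer flavoprotein, had signals of 23349 and 27784 in the lipin samples and 16614 and 14707 in the GFP samples. The groups did not overlap, and the replicates of each group lay close together, at 25570 ± 3136 in lipin and 15660 ± 1348 in GFP (SD, n = 2 each). The log2 difference was 0.70 ± 0.31 (limma adjusted p = 0.962), and with each array left out in turn it ran from 0.58 to 0.83. Etfa, the alpha subunit of the same dimer, had 9268 and 13889 in the lipin samples and 13222 and 8461 in the GFP samples. Its groups overlapped fully, with each group holding 1 high and 1 low sample. Its log2 difference was 0.10 ± 0.35 (limma adjusted p = 0.980), with an interval from 0.639-fold to 1.80-fold that includes the 1.63-fold difference of Etfb. The sign of Etfa turned without GFP replicate 2 (-0.22) and without lipin replicate 2 (-0.19). Whether the subunits differed from each other was not tested.

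Among the dehydrogenases of straight-chain acyl-CoA, Acadvl, which acts on very long chains at the inner mitochondrial membrane, stood highest. Its signals were 10133 and 11723 in the lipin samples and 5770 and 2888 in the GFP samples. Both lipin samples were above both GFP samples, by 0.81 to 2.02 on the log2 scale from pair to pair. The log2 difference was 1.42 ± 0.38 (limma adjusted p = 0.962), with an unadjusted interval from 1.52-fold to 4.68-fold. With GFP replicate 2, the lowest sample, left out it was 0.92, and with GFP replicate 1 left out it was 1.92. Acadvl ranked 454 of 8493 genes by difference, well behind Etfdh at rank 37.

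Acads, the short-chain enzyme, had 4847 and 4291 in the lipin samples and 3464 and 2841 in the GFP samples. The groups did not overlap, but the gap was narrow beside its error, with a log2 difference of 0.54 ± 0.38 (limma adjusted p = 0.962). Left-out arrays moved it only between 0.40 and 0.68. Acadl, the long-chain enzyme, had 6129 and 5247 in the lipin samples and 5484 and 3184 in the GFP samples, so that GFP replicate 1 lay between the lipin samples. Its log2 difference of 0.44 ± 0.38 (limma adjusted p = 0.962) was 0.048 without GFP replicate 2. The difference of Acadl therefore rested on that single low sample.

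Acadm, the medium-chain enzyme, was the one gene on the other side. It had 18825 and 16307 in the lipin samples, against 29784 and 19205 in the GFP samples. Lipin replicate 1 and GFP replicate 2 nearly met, and the groups were barely separated, with -0.029 as the smallest log2 difference between any lipin and any GFP sample. The log2 difference was -0.45 ± 0.33 (limma adjusted p = 0.962), with an unadjusted interval from 0.447-fold to 1.20-fold. It was -0.77 when GFP replicate 2 was left out, and -0.13 when GFP replicate 1, the brightest sample for Acadm, was left out. GFP replicate 2, the lowest sample for the other 3 straight-chain enzymes, was not the lowest for Acadm.

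**Figure D2:**
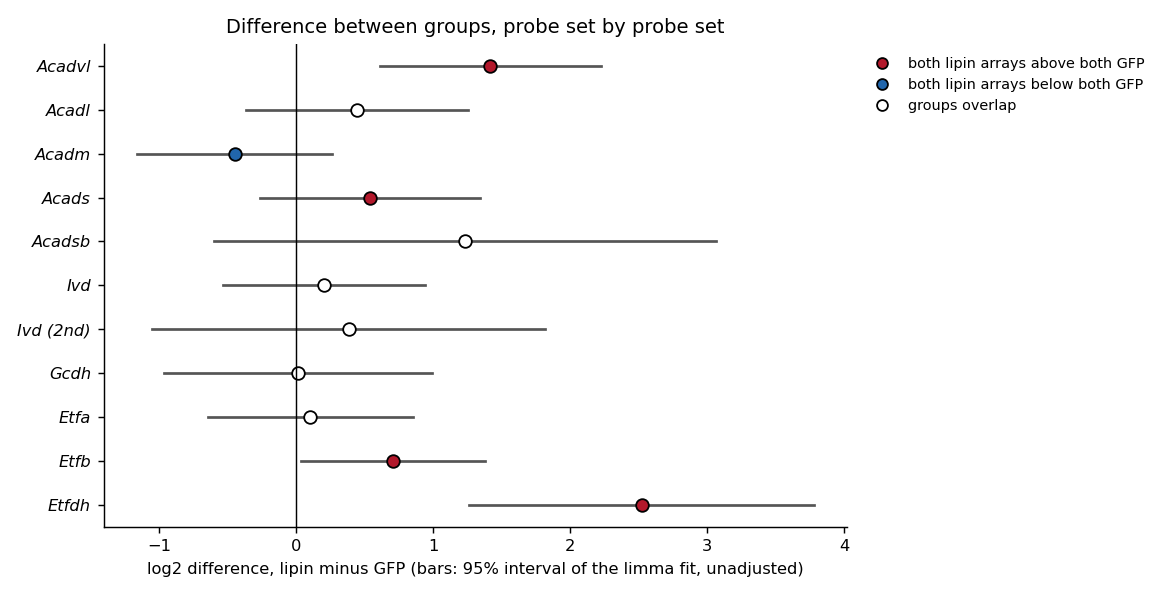
Log2 difference, lipin minus GFP, of each tested probe set (points) with its 95% interval from the limma fit, not adjusted for the number of probe sets; colour tells whether the groups overlapped. The intervals of Etfdh, Acadvl and Etfb lie above 0, and those of the other 7 genes include 0.

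The 3 dehydrogenases of amino acid breakdown had overlapping groups. Over all genes tested, 17.3% were higher and 16% lower without overlap. Ivd, isovaleryl-CoA dehydrogenase of leucine breakdown, had 6881 and 9674 in the lipin samples and 6061 and 8302 in the GFP samples on its brighter probe set. Each group held a brighter and a dimmer sample, the ranges overlapped, and the log2 difference was 0.20 ± 0.35 (limma adjusted p = 0.965). The dimmer Ivd probe set had 761 and 3076 in the lipin samples and 1235 and 1115 in the GFP samples, a log2 difference of 0.38 ± 0.67. There the lipin samples lay on either side of the GFP samples, and the difference was -0.63 without lipin replicate 2 and 1.39 without lipin replicate 1.

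Gcdh, glutaryl-CoA dehydrogenase of lysine and tryptophan breakdown, had 1806 and 2712 in the lipin samples and 2227 and 2159 in the GFP samples. The GFP samples lay together between the lipin samples, and the log2 difference was 0.013 ± 0.46 (limma adjusted p = 0.999). The interval, from 0.512-fold to 1.99-fold, includes differences of the size of Acads in either direction. Acadsb, the short branched-chain enzyme of isoleucine breakdown, had 1442 and 1592 in the lipin samples and 1772 and 234 in the GFP samples. A single low sample, GFP replicate 2, made its log2 difference of 1.23 ± 0.86 (limma adjusted p = 0.962), which was -0.23 without that sample and 2.69 without GFP replicate 1. Its probe set is also of a type that can match several transcripts.

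By role, the median log2 difference was 0.70 for the 3 electron transfer genes, 0.49 for the 4 straight-chain dehydrogenases and 0.20 for the 3 amino acid dehydrogenases. With 3 or 4 genes each and intervals of single genes that spanned a median of 1.61 on the log2 scale, these medians are given as descriptions, and their differences were not tested.

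GFP replicate 2 was the lowest of the 4 samples for 7 of the 10 genes and the highest for 0. Over all genes tested, it was the lowest for 27.2% and the highest for 34.2%. The exceptions were Acadm, lowest in lipin replicate 2, Gcdh, lowest in lipin replicate 1, and Ivd, lowest in GFP replicate 1. Relative to each gene's own mean over the arrays, the median of the 10 genes was 0.28 and 0.34 on the log2 scale in lipin replicates 1 and 2, and -0.056 and -0.43 in GFP replicates 1 and 2. Lipin replicate 2, the sample labelled polyA RNA, was the highest for 6 of the 10 genes and for 21.1% of all genes, and the part of the RNA type was not tested. The array that was lowest for 7 of these genes was the one with the highest 3′ to 5′ ratios, and its part in the differences was not tested beyond the values without it.

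**Figure D3:**
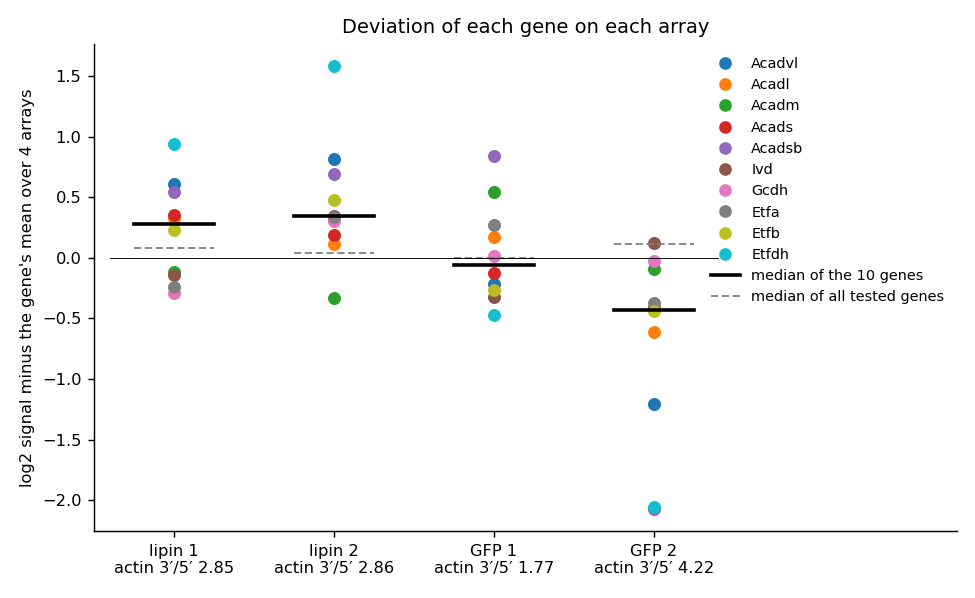
Log2 signal of each gene minus its own mean over the 4 arrays, by array, with the beta-actin 3′ to 5′ ratio under each name; thick bars are the median of the 10 genes and dashed bars that of all tested genes. The 10 genes center at 0.28 and 0.34 on the lipin arrays and at -0.056 and -0.43 on the GFP arrays, with Etfdh, Acadsb and Acadvl lowest on GFP replicate 2.

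**Figure D4:**
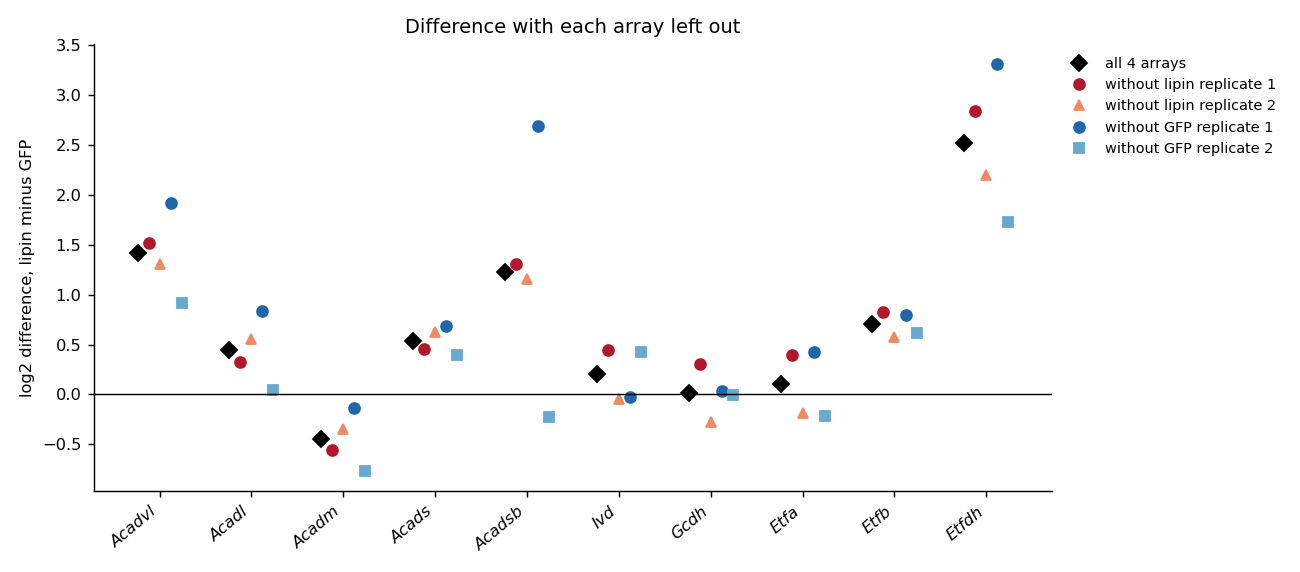
Log2 difference, lipin minus GFP, of the brightest probe set of each gene with all 4 arrays (diamonds) and with each array left out. Etfdh, Acadvl, Etfb and Acads stayed above 0 throughout, and Acadsb ranged from -0.23 to 2.69.

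Markers of other liver cell types differed unevenly between the samples. The 8 measured T and NK cell markers summed to 3574 and 2686 in the lipin samples and 3733 and 4940 in the GFP samples, 1 of them under the floor of 119.5 on all arrays, and 3 B cell markers to 1392 and 1158 in lipin and 2107 and 2471 in GFP. Macrophage markers (10 genes) summed to 52228 and 34445 in lipin and 54449 and 30150 in GFP, endothelial markers (6 genes) to 11021 and 13212 against 9898 and 15453, stellate cell and fibroblast markers (6 genes) to 17322 and 35704 against 35743 and 49248, and cholangiocyte markers (4 genes) to 1116 and 1754 against 726 and 2409. The B cell sums were thus lower in both lipin samples. The T and NK cell sums were lower too, but those of lipin replicate 1 and GFP replicate 1 were close. Under the floor were 2 and 3 T and NK cell markers in lipin replicates 1 and 2, and 4 and 2 in GFP replicates 1 and 2. The sums of stellate cells nearly met, and the others overlapped. Singly, the 4 tested T and NK cell markers had a median log2 difference of -1.18, with 0 above 0. For 3 B cell markers it was -0.45, with 0 above 0, and for 4 stellate and fibroblast markers -0.77, with 1 above. Medians were 0.34 for macrophage (9 genes, 5 above 0), 0.11 for endothelial (5 genes, 3 above 0) and 0.33 for 1 cholangiocyte marker. Over all genes tested, 50.1% were above 0. The part of these markers in the values of the dehydrogenase genes was not tested.

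The steps that surround the dehydrogenases in mitochondrial beta-oxidation had a median difference close to theirs. All 10 genes listed for these steps were tested, and their median log2 difference was 0.57, or 0.35 without GFP replicate 2. Both lipin samples were above both GFP samples in 6 and below in 1, and 0 passed limma's test (3 were higher at an unadjusted p under 0.05). Of all genes tested, 17.3% were above and 16% below without overlap. Of all probe sets, 2.47% were higher at an unadjusted limma p under 0.05. Cpt2, which re-forms acyl-CoA inside the mitochondrion, had 9319 and 11381 in lipin and 6828 and 1932 in GFP, a log2 difference of 1.5 ± 0.48 that was 0.59 without GFP replicate 2 and 0.095 on a dimmer probe set. Hadha and Hadhb, the subunits of the trifunctional protein that takes over from the Acadvl product, differed by 1.00 ± 0.39 and 0.90 ± 0.38, or 0.58 and 0.37 without that sample. Eci1, an enoyl-CoA isomerase, differed by 0.74 ± 0.38, or 0.33 without it. The gene below was Hadh, at -0.302 ± 0.395 on its brightest probe set, with other probe sets at 0.58 and 1.03. The limma adjusted p was 0.962 for each of these genes.

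Downstream of Etfdh, ubiquinol is oxidized by complex III. The 10 genes of complex III and cytochrome c had a median log2 difference of 0.23 (0.28 without GFP replicate 2), with 5 above and 1 below without overlap, and 0 passed the limma test (2 higher at an unadjusted p under 0.05). The shares without overlap over all genes tested were 17.3% above and 16% below. At that unadjusted p, 2.47% of all probe sets were higher. Uqcr11, a small subunit, had 11174 and 13637 in lipin and 5403 and 5588 in GFP, differing by 1.17 ± 0.32 on the log2 scale (limma adjusted p = 0.962). Its GFP samples were close together, and its difference ran from 1.02 to 1.31 with each array left out. Uqcr10, another small subunit, differed by 0.74 ± 0.31, with further probe sets at -0.44 and 0.40. The core proteins differed in sign, with 0.41 ± 0.31 for Uqcrc1 and -0.43 ± 0.36 for Uqcrc2.

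The relatives of the dehydrogenases did not share one direction. Of the other family members, Acad8, of valine breakdown, differed by 1.17 ± 0.68 (0.16 without GFP replicate 2, and -1.73 on its other probe set), Acad10 by -1.88 ± 1.34, Acad11 by 0.35 ± 0.33 and Acad9, an assembly factor of complex I, by -0.20 ± 0.63. Second probe sets gave 0.47 for Acad9 and 0.60 for Acad11. The median of these 4 was 0.072, and 0 passed the limma test (0 also at an unadjusted p under 0.05). The peroxisomal acyl-CoA oxidases Acox2 and Acox3, which do the first step of beta-oxidation without electron transfer flavoprotein, differed by 0.12 ± 0.37 and -1.27 ± 1.32. The value of Acox3 rested on lipin replicate 1, at 24.9 and so under the floor, and was 0.023 without it. The other donors to electron transfer flavoprotein showed overlapping groups, with Sardh and Dmgdh, of choline breakdown, at -0.26 ± 0.36 (0.47 on a second Sardh probe set) and -0.028 ± 0.35, and D2hgdh at 0.40 ± 1.32, a median of -0.028 (0.092 without GFP replicate 2). Among these oxidases and donors 0 passed the limma test, and 0 at an unadjusted p under 0.05. Without overlap, 17.3% of all genes tested were higher and 16% lower.

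All dehydrogenases and Etfdh carry FAD, and 4 of 7 genes listed for riboflavin and FAD supply were tested, with a median log2 difference of 0.80, or 0.45 without GFP replicate 2. Flad1, FAD synthase, had 1812 and 1668 in lipin and 1025 and 1031 in GFP, differing by 0.76 ± 0.56 on the log2 scale (limma adjusted p = 0.962). The replicates of each group were close, and the difference stayed between 0.70 and 0.82 with each array left out. Acp5, better known as a phosphatase of macrophages and osteoclasts, differed by 0.84 ± 0.46 (0.14 without GFP replicate 2). The riboflavin transporter Slc52a3 differed by 1.27 ± 1.22, with GFP replicate 1 below the floor, and by -0.20 without that sample. Riboflavin kinase Rfk differed by -0.31 ± 0.41, with other probe sets at 0.51 and 1.04. None passed the limma test, and 0 did at an unadjusted p under 0.05.

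The remaining steps of branched-chain amino acid and lysine breakdown, in which Ivd, Acadsb and Gcdh act, centered on 0. Of 21 genes listed, 18 were tested, with a median log2 difference of -0.040 (0.060 without GFP replicate 2), 0 above and 1 below without overlap, beside 17.3% and 16% of all genes. The gene below was Dbt, the E2 subunit of branched-chain ketoacid dehydrogenase, with 1949 and 4002 in lipin and 5645 and 8077 in GFP, and differed by -1.27 ± 0.42 on the log2 scale (limma adjusted p = 0.962), the one gene of the list with an unadjusted p under 0.05. Of all probe sets, 1.92% were lower at that p. Mmut, methylmalonyl-CoA mutase, differed by 0.42 ± 0.36, Pcca, a propionyl-CoA carboxylase subunit, by 0.37 ± 0.38 and Bckdk, the kinase of the ketoacid dehydrogenase, by -1.23 ± 1.26. For Bckdk, lipin replicate 2 was under the floor, at 83.5, and the difference was 0.21 without it. In ketone body synthesis, 2 of 4 genes were analysed here, Acat1 at 0.22 ± 0.37 and Bdh1 at 0.20 ± 0.35 (median 0.21), and both were negative without GFP replicate 2 (-0.25 and -0.10). A second Bdh1 probe set differed by 1.53, and 2 others of Acat1 by -0.20 and 0.21. No gene of these lists passed the limma test.

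**Figure D5:**
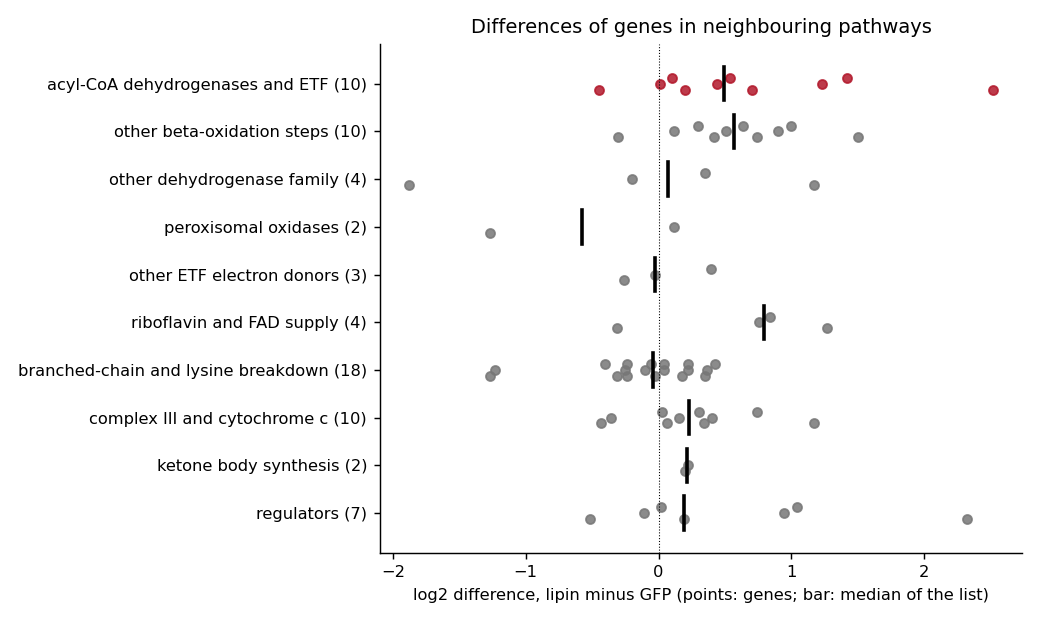
Log2 difference, lipin minus GFP, of each tested gene (points) in the 10 dehydrogenase and electron transfer genes and in 9 lists of neighbouring pathways, with the number tested in brackets and a bar at the median. The 10 genes and the other beta-oxidation steps have medians of 0.49 and 0.57, and branched-chain and lysine breakdown one of -0.040.

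Of 7 tested regulators, Ppara stood highest. Their median log2 difference of 0.19 (-0.12 without GFP replicate 2) was the value of the brighter probe set of Lpin1, the gene the vector carries. The other Lpin1 probe set differed by 0.98 ± 0.53. The signals of Ppara were 5452 and 13121 in lipin and 1688 and 1695 in GFP, differing by 2.32 ± 0.44 on the log2 scale (limma adjusted p = 0.660). Left-out arrays moved this between 1.69, without lipin replicate 2, and 2.96, without lipin replicate 1. Unlike Etfdh, Ppara had nearly equal signals in the GFP samples. Hnf4a, a hepatocyte nuclear receptor, differed by 0.95 ± 0.37 on its brightest probe set (0.37 without GFP replicate 2), and its 3 other probe sets lay between -0.12 and 0.37. Esrra differed by 1.04 ± 0.76 and Ppargc1b, a coactivator, by -0.52 ± 0.47, and without lipin replicate 1 these were 0.56 and 0.38. Ppargc1a was too dim to test. None of the 7 passed, and 2 were higher at an unadjusted p under 0.05, where 2.47% of all probe sets were higher.

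The genes whose profile over the 4 arrays was nearest to the mean profile of the 10 genes were P4hb, Mlx, Slc39a7, Eci1 and Agt, out of 8483 other genes. Likeness was the root mean square distance of log2 signals centered on their own mean, which was 0.030 to 0.055 for these 5, against a median of 0.682 over all other genes. Eci1 is of beta-oxidation, P4hb folds secreted proteins, Slc39a7 carries zinc, Mlx is a partner of glucose-responsive transcription factors and Agt is angiotensinogen. Among the 10 genes themselves the distance ran from 0.198 for Acadl to 0.980 for Etfdh, so the mean profile described Etfdh least. With 4 arrays many genes can share a profile, and the likeness is a description.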

How the data were processed

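Liver RNA of 4 samples, 2 per group by their titles, was measured on Affymetrix arrays. The deposited values are linear intensity values, 1 per probe set and array, made by the authors with MAS5, per the submitters' processing notes. Neither its version nor its scaling target is named in the labels. The 2% trimmed mean was 1501 on every array, so no further scaling was applied. MAS5 subtracts mismatch probes, which leaves dim probe sets noisy, and no detection calls were used here.

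Control probe sets (64 of 22690) were left out, and none of the columns belonged to another series. Signals under 119.5, the 20th percentile, were raised to it and log2 was taken. The lower 40% of probe sets by mean log2, under a geometric mean signal of 373, were dropped. The other 13576 were fitted in limma 3.58.1 (R 4.3.3), with lmFit and trended eBayes. Two-sided p-values were adjusted over these probe sets (Benjamini-Hochberg), and the threshold was 0.05. The model was first run on simulated data, with changes set in bright probe sets and larger than most of those reported here. That run does not bear on smaller differences. Differences are on this floored log2 scale, and their errors are limma's moderated standard errors. In the main fit these had 12.69 degrees of freedom from the intensity trend over all probe sets and 2 from the gene's own samples. They can therefore be wider or narrower than the spread of a gene's own replicates. Of 20380 probe sets with 1 symbol in the platform annotation, 20351 matched the RefSeq gene table (GRCm38.p6), used for names. Promoter windows came from that build's RefSeq promoter table. A gene (8493 tested) was represented by its brightest tested probe set, and 2628 genes had several.

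Named are all probe sets of the 10 genes, Lpin1, Ppara, up to 4 genes per list by smallest p, the 5 genes nearest in profile, and Hadh. Members and lists were chosen with earlier results of these data known. Alternatives covered normalization, floor, filter, moderation, the replicate number as a block, each array left out, and the choice of probe set.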

Additional observations from a re-analysis of the deposited data

How the results depend on the processing

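The results rest on 4 arrays, and their number limits the precision of every value. Quantile normalization, median centring, a lower floor, other filters and other moderation kept the sign of all 11 tested probe sets, called 0 probe sets at the limma threshold, and left the 4 genes without overlap and the median of the 10 genes, at 0.49 to 0.52, in place. Averaging over the probe sets of each gene left the median at 0.49, and leaving out the Acadsb probe set gave 0.44. Without adjustment, at a p under 0.05, 335 higher and 261 lower probe sets were counted. With each array left out in turn, 0 to 7 probe sets were higher and 0 to 6 lower at an adjusted p under 0.05, none of them a member, the median of the 10 genes ran from 0.22 to 0.74, and 5 to 7 of them had no overlap on the higher side, beside 30.1% to 36.2% of all genes (17.3% with all arrays). The sign turned for Acadsb (-0.23), Etfa (-0.22) and Gcdh (-0.0092) without GFP replicate 2, for Ivd (-0.025) without GFP replicate 1, and for Etfa (-0.19), Gcdh (-0.28) and the Ivd probe sets (-0.044 and -0.63) without lipin replicate 2. The highest values with an array left out were 2.69 for Acadsb, 0.42 for Etfa, 0.31 for Gcdh, and 0.45 and 1.39 for the Ivd probe sets.

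Same-numbered samples did not deviate together (correlation of deviations from the group means 0.028 over 13576 probe sets). With 2 samples per group, this correlation cannot exclude that they were paired. With the replicate number as a block, 34 probe sets were higher and 18 lower, Etfdh and Acadvl among the higher (limma adjusted p = 0.0045 and 0.012). In that fit, and without either lipin replicate, the spread of a gene came from the intensity trend alone.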
